A study of Mus musculus with 2 samples.

Results

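The lipid-associated macrophage genes described here are 10 of the 32285 genes counted: the receptor gene Trem2 and its adaptor Tyrobp, the apolipoprotein genes Apoe and Apoc2, the lipoprotein lipase gene Lpl, the fatty acid binding protein gene Fabp5, the tetraspanin genes Cd9 and Cd63, and Gpnmb and Spp1. They are a named list, drawn up with earlier results of these data known, and all 10 had at least 1 unique molecular identifier (UMI, 1 captured transcript) in each library. Live CD45+ cells, that is leukocytes, had been sorted from the adrenal glands of C57BL/6 mice aged 7 weeks, and 1 droplet library was made from females and 1 from males. The labels name no treatment, transgene or deletion for either group, and the number of animals behind a library was not given in the sources used here. Sex and library therefore cannot be told apart, the spread from animal to animal is unknown, and all intervals below cover counting error only.

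TREM2 is a surface receptor of macrophages and microglia that binds lipids, lipoproteins and apolipoprotein E. It has no signalling motif of its own and signals through TYROBP (DAP12), an adaptor that also serves receptors of natural killer (NK) cells and neutrophils. In obese adipose tissue, in atherosclerotic plaques and around amyloid in brain, macrophages that handle much lipid are known to raise a shared set of genes with Trem2, Apoe, Lpl, Cd9, Cd63, Fabp5, Gpnmb and Spp1 among them. The adrenal cortex is itself rich in lipid, since it stores cholesterol esters for steroid synthesis. The question put to the data was which adrenal leukocytes carried these genes, whether the genes went together from cell to cell, and whether their levels differed between the female and the male library.

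In the GENCODE annotation of mm10, Trem2 (ENSMUSG00000023992) spans chr17:48346401-48354147 on the plus strand, Tyrobp chr7:30413760-30417585 plus, Apoe (ENSMUSG00000002985) chr7:19696109-19699188 minus, Apoc2 chr7:19671579-19677941 minus, Gpnmb chr6:49036546-49070929 plus, Cd9 chr6:125460266-125494791 minus, Cd63 chr10:128900989-128912822 plus, Fabp5 chr3:10012548-10016607 plus, Spp1 chr5:104435118-104441050 plus and Lpl chr8:68880491-68907448 plus. The annotated genes that overlap Apoc2 and Spp1 on the same strand are not among the genes counted. Apoe and Apoc2 are neighbours in the apolipoprotein cluster of chromosome 7. The 250 bases before the annotated start are shown for the 4 genes that mark the extremes of this report, the pair whose levels ran together across cell classes (Trem2 and Apoe) and the pair that was all but absent (Gpnmb and Spp1). The sequences come from RefSeq on GRCm38.p6, read 5′ to 3′ on the gene's strand, and cover chr17:48346151-48346400 plus, chr7:19699189-19699438 minus, chr6:49036268-49036517 plus and chr5:104434861-104435110 plus. Capitals mark any match to the motifs searched. The RefSeq starts of Gpnmb and Spp1 lie 28 and 7 bases upstream of the GENCODE ones.
Trem2: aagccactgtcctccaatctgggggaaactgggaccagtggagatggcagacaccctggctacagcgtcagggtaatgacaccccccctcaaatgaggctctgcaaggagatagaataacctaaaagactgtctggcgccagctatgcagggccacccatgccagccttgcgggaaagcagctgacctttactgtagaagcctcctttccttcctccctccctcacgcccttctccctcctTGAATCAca
Apoe: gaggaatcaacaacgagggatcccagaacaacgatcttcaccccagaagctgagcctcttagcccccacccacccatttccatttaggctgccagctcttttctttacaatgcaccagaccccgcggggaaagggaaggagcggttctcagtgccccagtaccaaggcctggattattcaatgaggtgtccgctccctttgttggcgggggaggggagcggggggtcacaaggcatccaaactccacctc
Gpnmb: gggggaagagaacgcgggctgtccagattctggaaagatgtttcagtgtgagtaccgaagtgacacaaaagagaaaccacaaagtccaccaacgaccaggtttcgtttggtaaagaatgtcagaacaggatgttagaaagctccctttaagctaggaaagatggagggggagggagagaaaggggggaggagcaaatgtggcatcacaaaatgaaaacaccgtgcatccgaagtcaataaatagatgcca
Spp1: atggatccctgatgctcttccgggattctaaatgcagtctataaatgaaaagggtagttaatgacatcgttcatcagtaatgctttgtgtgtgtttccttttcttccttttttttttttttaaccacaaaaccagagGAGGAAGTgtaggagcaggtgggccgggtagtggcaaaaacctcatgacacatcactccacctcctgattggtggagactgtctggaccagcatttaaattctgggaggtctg
Both strands were searched for CACGTG and CATGTG (boxes bound by MITF and TFE factors of lysosomal and lipid genes), TGANTCA (the AP-1 element) and GAGGAAGT (the PU.1 core). The Trem2 window held 1 match to TGANTCA, beginning 9 bases before the start, and the Spp1 window 1 match to GAGGAAGT, beginning 113 bases before it, neither of which overlapped another motif. The Trem2 match has A as its middle base, so it is not the strict AP-1 element. No match stood in the Apoe or Gpnmb window. Among 32851 windows of the same length, 6.75% held TGANTCA, 2.44% GAGGAAGT, 6.02% CACGTG and 12.3% CATGTG. Windows were at hand for 7 of the 10 genes, and of the other 3 that had one, Cd9 alone held a match, to CATGTG. These are letters in a window, and nothing about binding was measured.

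The female library held 16218309 UMIs over 3963 barcodes (median 3432) and the male library 9512670 over 2685 (median 2777), with 2 barcode sequences in common. Cells were gated by canonical markers other than the 10 genes, with thresholds set after the marker distributions were seen. C1q-positive macrophages, with 10 or more UMIs of C1qa, C1qb and C1qc, numbered 734 in the female and 724 in the male library. Their summed level of Mertk, Fcgr1 and Adgre1, genes of the macrophage identity, was 739 CPM (counts of the genes scaled to the UMI total of the class) and 665 CPM, against 290 and 209 CPM in classical monocytes and 4.79 and 8.35 CPM in T cells. Among them, MHC class II high macrophages numbered 461 and 521 and MHC class II low macrophages 168 and 18, which is 22.9% of the female (95% interval 19.9 to 26.1) and 2.49% of the male C1q-positive cells (1.48 to 3.90). Lyve1 Folr2 macrophages, with 3 or more UMIs summed over Lyve1, Folr2, Fcna, Cd209f, Cbr2 and Timd4, numbered 45 and 88. Retnla Aldh1a2 macrophages numbered 76 and 131, of which only 34 and 61 passed the C1q threshold. They had 10 or more UMIs summed over Retnla, Aldh1a2, Ear2 and Lyz1, and at least 1 of Mertk, Fcgr1, Adgre1 or Csf1r. A cell could reach either sum without the genes that name the subset. Cells over the Retnla sum were kept out of the monocyte and dendritic cell classes. Cells with 5 to 9 C1q UMIs, 100 female and 132 male, lay next to the threshold.

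Levels of the 10 genes by cell class are given as UMIs summed over the class in CPM, and the map of CPM values shows them side by side. RNA set free from broken cells also reaches droplets of cells that do not make it. T cells, which do not make C1q, held C1q at 0.525% of the macrophage level in the female library and at 0.734% in the male. Their Apoe stood at 0.713% and 0.974% of the macrophage level, their Trem2 at 0.359% and 0.937% and their Lpl at 0.707% and 1.23%, so these are read as background in T cells. Tyrobp, at 17.3% and 18.7%, and Cd9, at 18.8% and 24.4%, stood far above that level in T cells. Cells with both T cell and NK cell markers were kept and called T cells. A Tyrobp UMI was present in 127 of 440 male T cells. The part of cells with both marker sets in these levels was not tested. Cells over the C1q threshold were kept out of the monocyte, dendritic cell and lymphocyte classes, which caps the C1q of those classes.

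**Figure D1:**
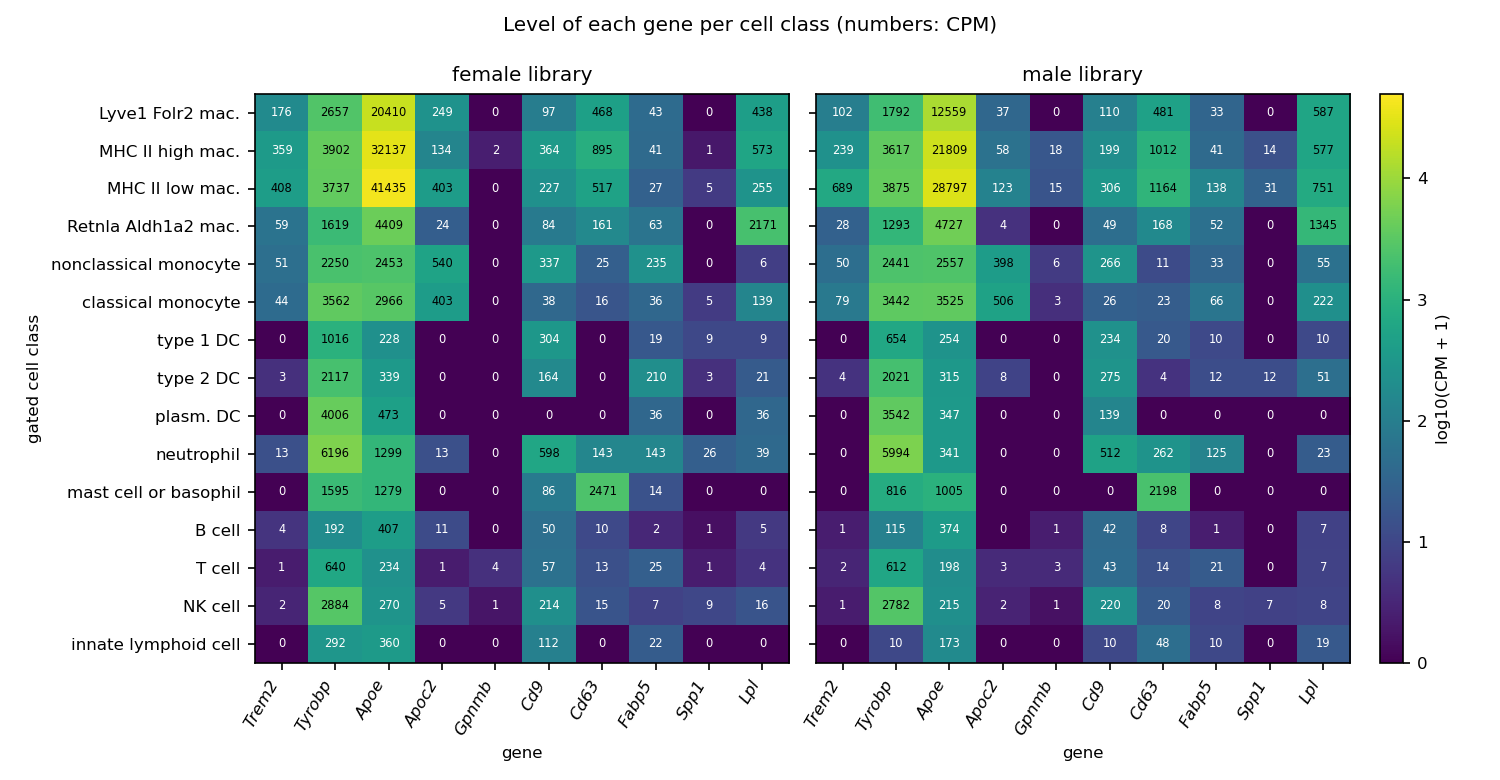
Heat maps of CPM (numbers, colour on a log10 scale of CPM + 1) for the 10 genes (columns) in 15 gated cell classes (rows), female library left and male library right. Trem2 is at 176 to 408 CPM in the 3 C1q macrophage subsets of the female library and at 4.01 CPM or less in T, B and NK cells, while Tyrobp is spread over all myeloid classes and NK cells.

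Trem2 was highest in C1q-positive macrophages in both libraries. Its level was 351 CPM in the female (331 to 373, 1073 UMIs in 734 cells) and 223 CPM in the male library (205 to 241, 614 UMIs in 724 cells). As sequenced, 55.3% of the female and 32.7% of the male macrophages had a Trem2 UMI, and 23.4% (20.4 to 26.7) and 15.8% (13.2 to 18.8) had one after each cell had been reduced to 1000 UMIs by a random draw. T cells after the same draw had one in 0.235% (female) and 0.462% (male) of cells, and their median depth was 4067 and 4088.5 UMIs against 3711.5 and 2947 in the macrophages. The female order of levels ran from MHC class II low macrophages (408 CPM) and MHC class II high macrophages (359 CPM), whose intervals overlapped, through Lyve1 Folr2 macrophages (176 CPM) to Retnla Aldh1a2 macrophages (59.4 CPM), nonclassical (50.8 CPM) and classical monocytes (43.7 CPM), which did not differ beyond their intervals. The male order was 689, 239 and 102 CPM in the MHC class II low, MHC class II high and Lyve1 Folr2 macrophages, then 79.4 CPM in classical and 49.8 CPM in nonclassical monocytes and 28.0 CPM in Retnla Aldh1a2 macrophages. In the male MHC class II low macrophages 5 of 18 cells held 86.7% of the 45 Trem2 UMIs, so that value rests on a handful of cells. Type 2 dendritic cells had 1 Trem2 UMI in each library, in 53 and 48 cells, and type 1 and plasmacytoid dendritic cells had none.

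Against classical monocytes, the blood-derived Ly6c2 Chil3 cells, Trem2 was 8.03-fold higher in female C1q-positive macrophages (5.37 to 12.6) and 2.80-fold higher in male ones (1.87 to 4.41), the latter 6.79-fold under a mitochondrial ceiling of 1.2%, a strict setting that left 37 female and 56 male macrophages. In male classical monocytes 5 of 75 cells held 66.7% of the 24 Trem2 UMIs. Macrophages of the Lyve1 Folr2 subset held less Trem2 than the other C1q-positive macrophages, at 0.488 times their level in the female (0.325 to 0.705) and 0.434 times in the male library (0.279 to 0.648), and at 0.280 to 0.579 and 0.366 to 0.551 times under the alternatives that gave a value. The median mitochondrial share was 5.93% and 5.99% in that subset against 3.10% and 2.84% in MHC class II high macrophages. Under a mitochondrial ceiling of 5%, which left 17 and 35 cells of the subset, its Trem2 ratios were 0.280 and 0.551. In the female subset 9 of 45 cells had a Trem2 UMI, and 5 of them held 86.2% of the 29 UMIs. Trem2 was the only one of the 8 genes with enough UMIs (50 over both groups of cells in each library) to be 2-fold or more lower in that subset in both libraries, where 4.11% of 5857 genes were, and it missed that fold in both with gate thresholds halved. In Retnla Aldh1a2 macrophages the ratios to the other C1q-positive macrophages were 0.164 (0.0952 to 0.264) and 0.119 (0.0660 to 0.197), and 0.320 (0.182 to 0.523) and 0.258 (0.136 to 0.444) for the 34 and 61 cells of that subset over the C1q threshold.

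**Figure D2:**
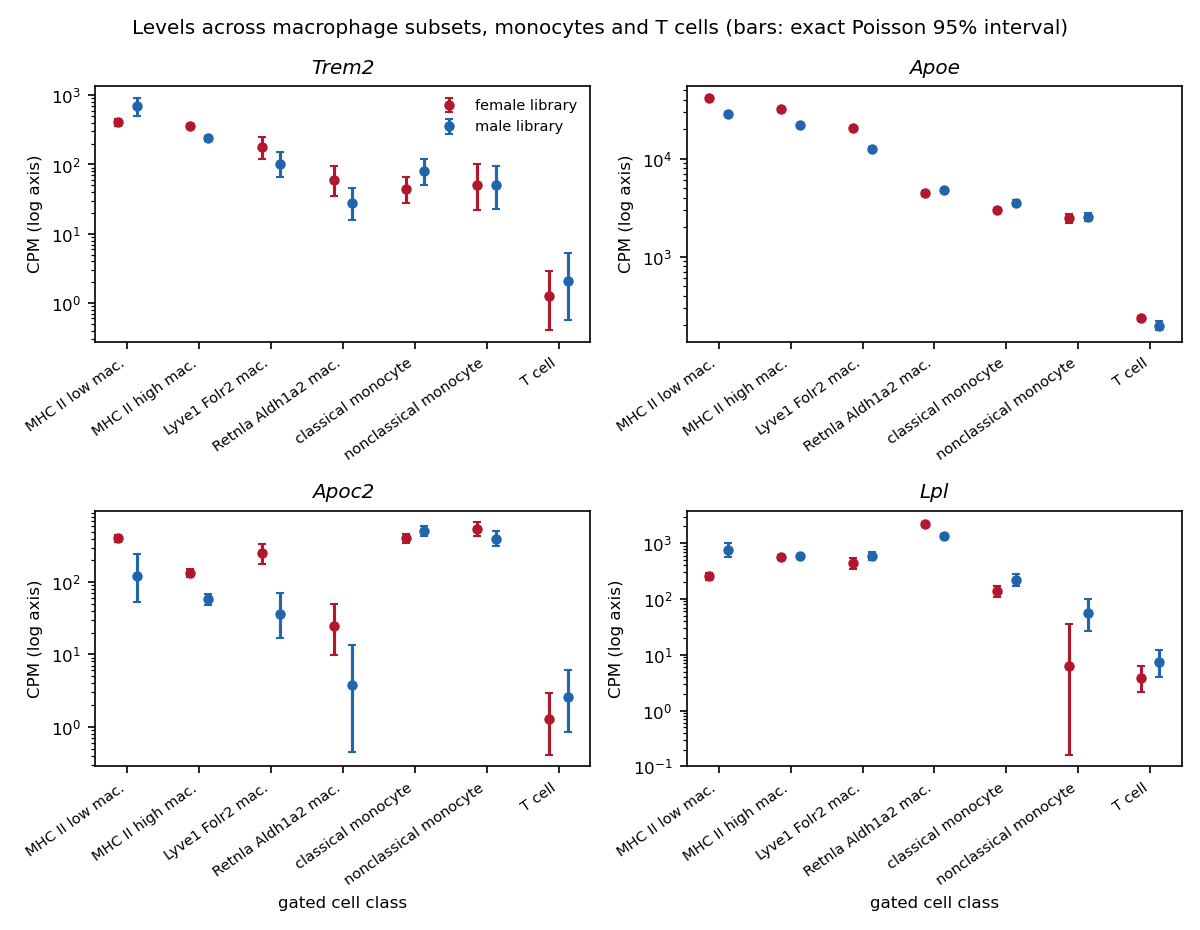
CPM on a log axis with exact Poisson 95% intervals for Trem2, Apoe, Apoc2 and Lpl in macrophage subsets, monocytes and T cells, female and male library as separate points. Trem2 falls from 408 and 689 CPM in MHC class II low macrophages to 59.4 and 28.0 CPM in Retnla Aldh1a2 macrophages, whereas Lpl is highest in the latter, at 2171 and 1345 CPM.

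Tyrobp, the adaptor, was not limited to the cells with Trem2. The level in C1q-positive macrophages was 3696 CPM (3628 to 3765) for females and 3266 CPM for males, 1.04 and 0.949 times the level of classical monocytes. Its highest level was in neutrophils, at 6196 CPM (5652 to 6778) and 5994 CPM (5493 to 6528). NK cells held 2884 and 2782 CPM, with a UMI in 88.9% of cells of both libraries after the draw. T cells held 640 and 612 CPM and B cells 192 and 115 CPM. Retnla Aldh1a2 macrophages, at 1619 and 1293 CPM, had 0.428 and 0.378 times the level of the other C1q-positive macrophages.

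Apoe, the ligand and lipid carrier, was the member closest to Trem2 in distribution. It made up 32886 CPM of female (100426 UMIs) and 20301 CPM of male C1q-positive macrophages (55999 UMIs). By subset it stood at 41435 CPM in MHC class II low, 32137 CPM in MHC class II high, 20410 CPM in Lyve1 Folr2 and 4409 CPM in Retnla Aldh1a2 macrophages of the female library. The male values were 28797, 21809, 12559 and 4727 CPM in the same order. Every neighbouring pair in these orders differed beyond its counting interval. Against classical monocytes, at 2966 and 3525 CPM, the macrophages were 11.1-fold (10.6 to 11.7) and 5.76-fold (5.42 to 6.13) higher, the male value 11.2-fold under the 1.2% ceiling, and 5 of the 75 male monocytes held 61.1% of their Apoe UMIs. T cells had an Apoe UMI in 18.1% and 18.5% of cells after the draw, the background share against which the 98.7% and 99.1% of macrophages stand. B cells, with 28.3% and 29.8%, held Apoe at 1.24% and 1.84% of the macrophage level and C1q at 0.609% and 0.669% of it.

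Apoc2, which encodes the cofactor that activates lipoprotein lipase, followed another distribution and was higher in monocytes than in macrophages. Female classical monocytes held 403 CPM (351 to 460) and nonclassical monocytes 540 CPM (431 to 668), against 203 CPM (188 to 220) in C1q-positive macrophages. In the male library the monocytes held 506 and 398 CPM and the macrophages 52.9 CPM. The ratio of macrophages to classical monocytes was 0.505 (0.432 to 0.591) in the female and 0.105 (0.0827 to 0.132) in the male library, and under the 1.2% ceiling these ratios were 1.04 and 0.589. In classical monocytes 5 cells gave 31.2% of the female and 59.5% of the male Apoc2 UMIs. Among female macrophages the MHC class II low subset, at 403 CPM, stood above the MHC class II high subset at 134 CPM (118 to 151), and Retnla Aldh1a2 macrophages were lowest at 24.5 CPM with 7 UMIs. The monocyte genes Ly6c2 and Chil3 summed to 448 CPM in that low subset and 90.7 CPM in the high one. Female classical monocytes held 4473 CPM of them. C1q-positive cells that also carried monocyte markers were not set apart, and their part in the Apoc2 levels was not tested. Lymphocytes and dendritic cells were at or below 10.9 CPM.

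Lpl, the lipase that frees fatty acids from lipoprotein triglycerides, was highest in Retnla Aldh1a2 macrophages, the macrophage subset where Trem2 and Apoe were lowest. Retnla Aldh1a2 macrophages held 2171 CPM in the female (2004 to 2349, 621 UMIs in 76 cells) and 1345 CPM in the male library (1249 to 1447, 720 UMIs in 131 cells). This was 4.53-fold (4.11 to 4.98) and 2.30-fold (2.10 to 2.52) the level of the other C1q-positive macrophages, and 54 of 76 and 90 of 131 cells had a UMI. For the cells of the subset over the C1q threshold it was 3.59-fold (3.11 to 4.12) and 1.23-fold (1.04 to 1.46). Lpl is also an adipocyte gene. The methods state for flow cytometry that fat around the gland was taken off, which their single-cell section does not repeat. The sort was for CD45+ cells. The adipocyte transcripts Adipoq, Plin1, Cidec and Cfd summed to 16 UMIs (55.9 CPM, Cidec at 0) in the female and 23 UMIs (43.0 CPM) in the male Retnla Aldh1a2 macrophages, to 158 and 159 CPM in Lyve1 Folr2 macrophages, and to 41.6 and 58.7 CPM over all C1q-positive macrophages. Most of these UMIs were of Cfd alone, 13 of 16 and 18 of 23 in Retnla Aldh1a2 macrophages. In Lyve1 Folr2 macrophages Cfd gave 22 of 26 and 31 of 39, and over all C1q-positive macrophages 114 of 127 and 128 of 162. Adipoq itself had 2 and 3 UMIs in the Retnla Aldh1a2 macrophages. The part of adipocyte RNA in the Lpl level was not tested. The other subsets held 573 and 577 CPM of Lpl (MHC class II high), 438 and 587 CPM (Lyve1 Folr2) and 255 and 751 CPM (MHC class II low, the male value from 6 of 18 cells). Classical monocytes held 139 and 222 CPM, and C1q-positive macrophages as a whole were 3.86-fold and 2.68-fold above them.

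Fabp5, an intracellular carrier of fatty acids, was scarce and driven by few cells. C1q-positive macrophages held 36.0 CPM (110 UMIs) and 41.7 CPM (115 UMIs), and 5 cells gave 55.5% and 53.0% of those UMIs. The higher female values in type 2 dendritic cells (210 CPM) and nonclassical monocytes (235 CPM) came from 1 cell each, with 55 of 60 and 30 of 37 UMIs. The male values there were 11.8 and 33.2 CPM. Neutrophils held 143 and 125 CPM (11 UMIs each in 9 and 7 cells), and T cells 25.2 and 21.4 CPM spread over 68 and 31 cells.

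The tetraspanins, membrane organisers of the cell surface (CD9) and of lysosomes and secretory granules (CD63), differed from each other. C1q-positive macrophages held Cd63 at 751 CPM in females (720.4 to 782) and 920 CPM in males, and classical monocytes at 16.4 and 23.2 CPM, ratios of 45.8 (24.1 to 100.2) and 39.7 (19.2 to 98.8). Of the 8 genes tested it set macrophages furthest apart from classical monocytes in both libraries. Of the other gated classes, only mast cells and basophils exceeded the macrophages, at 2471 CPM (2116 to 2870, 23 cells) and 2198 CPM (1531 to 3057, 6 cells), with a Cd63 UMI in each cell. Cd9 stood at 301 CPM (282 to 321) and 178 CPM in C1q-positive macrophages, 7.87-fold and 6.71-fold over classical monocytes. It was at or above the macrophage level in nonclassical monocytes (337 and 266 CPM) and higher in neutrophils (598 and 512 CPM). NK cells held 214 and 220 CPM with a UMI in 21.4% and 20.3% of cells after the draw, against 21.0% and 11.7% of C1q-positive macrophages.

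Gpnmb, a lysosomal glycoprotein gene, and Spp1, which encodes osteopontin, were all but absent. Gpnmb had 3 UMIs in 1 of 734 female and 40 UMIs in 4 of 724 male C1q-positive macrophages, and Spp1 had 6 UMIs in 5 female and 32 in 8 male cells. A cell with 3 or more UMIs of either gene, a rule chosen after these values were seen, occurred once in the female library (0.136%, 0.00345 to 0.757) and in 2 cells of the male library (0.276%, 0.0335 to 0.994). These 3 cells held all 3 female and 37 of the 40 male Gpnmb UMIs, 25 of the 32 male Spp1 UMIs, and 43 of 110 female and 31 of 115 male Fabp5 UMIs. All 3 fell in the MHC class II high gate, but at 18.1, 13.3 and 18.1 class II UMIs per 1000 they lay near its limit of 10, against 47.7 in the female and 59.0 in the male class as a whole, and 9 or 10 of the 10 genes had a UMI in each. Their depth, 12016, 10952 and 7451 UMIs, was above the medians of that class (3773 female and 3573 male). It was also above those of all C1q-positive macrophages (3711.5 and 2947).

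The female cell carried 43 Fabp5, 14 Trem2 and 393 Apoe UMIs with 130 of Lgals3 (galectin-3), but no Spp1 and 1 Lpl. The deeper male cell carried 36 Gpnmb, 31 Fabp5, 14 Spp1, 38 Lpl, 18 Cd63 and 9 Trem2 UMIs with 87 of Lgals3 and only 37 of Apoe and 3 of C1qa. The other male cell carried 11 Spp1, 10 Cd9, 18 Lpl, 7 Trem2 and 14 Fabp4 UMIs with 1 of Gpnmb and none of Fabp5. None of the 3 had a Cd3e or Mki67 UMI. Without these cells Gpnmb was at 0 UMIs in female and 3 UMIs (1.09 CPM) in male macrophages and Spp1 at 1.97 and 2.55 CPM, which allows no fold between the sexes for Gpnmb at this depth. Outside macrophages, Gpnmb had 14 UMIs in 12 female and 5 in 5 male T cells, and Spp1 30 UMIs in 14 female and 11 in 4 male NK cells.

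**Figure D3:**
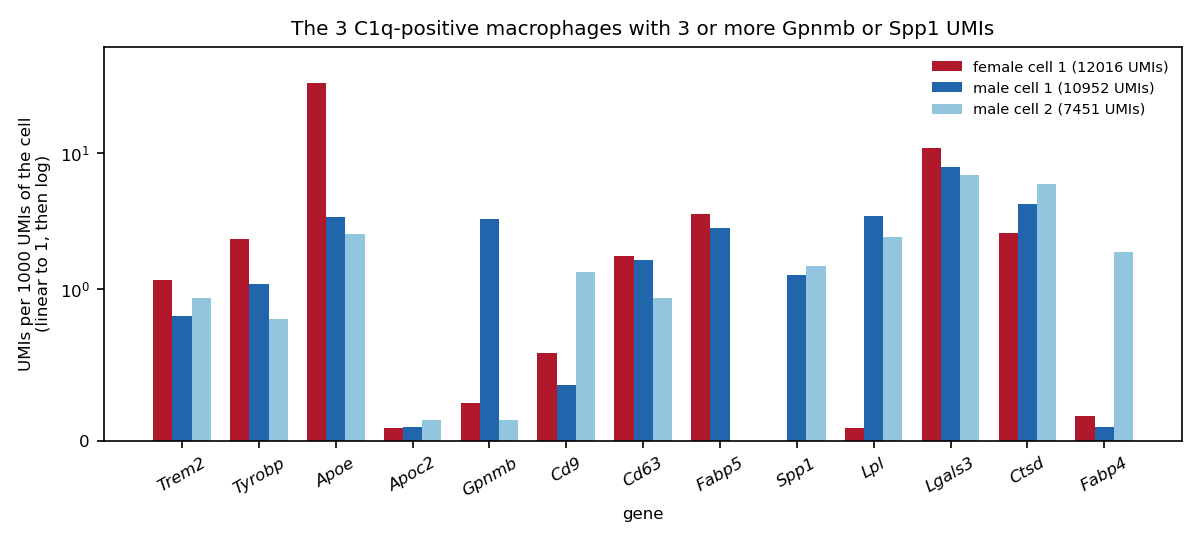
UMIs per 1000 UMIs of the cell (linear to 1, then log) for the 10 genes and related genes in the 3 C1q-positive macrophages with 3 or more Gpnmb or Spp1 UMIs, 1 colour per cell. The deeper male cell (10952 UMIs) carries Gpnmb, Fabp5, Spp1 and Lpl together, and the female cell (12016 UMIs) carries Fabp5, Trem2 and Apoe with 3 Gpnmb UMIs.

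Over the panel, 5 of the 8 genes with enough UMIs (Trem2, Apoe, Cd9, Cd63 and Lpl) were 2-fold or more higher in C1q-positive macrophages than in classical monocytes in both libraries, where 9.57% of 6269 genes were. None of the 8 was 2-fold or more lower in both, against 4.66% of all genes. In Retnla Aldh1a2 macrophages 6 of the 8 (Trem2, Tyrobp, Apoe, Apoc2, Cd9 and Cd63) were 2-fold or more lower than in the other C1q-positive macrophages in both libraries, against 6.92% of 6152 genes, and Lpl alone was 2-fold or more higher, against 5.80% of them. That subset lies mostly below the C1q threshold and the cells it was set against lie above it. Among its C1q-positive cells Trem2, Apoc2 (5 and 2 UMIs), Cd9 and Cd63 kept the 2-fold difference in both libraries, whereas Tyrobp (0.505 and 0.424), Apoe (0.241 and 0.521) and Lpl (3.59 and 1.23) did not. Fabp5 passed none of these folds, with ratios of 1.70 (0.970 to 2.81) and 1.23 (0.783 to 1.88) in the Retnla Aldh1a2 comparison. With 1 library a sex these are counts of genes past a fold, without a test.

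Between the sexes, Apoc2, Cd9, Apoe and Trem2 were higher in the female C1q-positive macrophages. Apoc2 was 3.84-fold higher (3.20 to 4.63), Cd9 1.70-fold (1.52 to 1.90), Apoe 1.62-fold (1.60 to 1.64) and Trem2 1.58-fold (1.43 to 1.75). Tyrobp was 1.13-fold higher (1.10 to 1.16). Cd63 was lower, at a female-to-male ratio of 0.816 (0.771 to 0.864), as was Lpl at 0.901 (0.840 to 0.965), and under the 1.2% ceiling these were 0.499 and 0.480. Fabp5 at 0.864 (0.659 to 1.13) did not differ beyond counting error. Apoc2 was the 1 of the 8 genes with a 2-fold or larger excess in the female library, where 0.591% of 8125 genes had one, and none of the 8 reached it in the male library, where 0.997% did. The monocyte genes Ly6c2 and Chil3 summed to 183 CPM in female and 26.5 CPM in male C1q-positive macrophages. Their sums were 90.7 and 30.4 CPM in the MHC class II high and 448 and 0 CPM in the MHC class II low subset. The part of monocyte-like cells in the Apoc2 ratios was not tested. The 8 genes belong to the list drawn up with earlier results of these data known. The study itself reported higher Apoc2 in female macrophages, so the shares over all genes are no test of the list. The median log2 ratio over the 8125 genes was -0.03 and over the 8 genes 0.41.

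The makeup of the macrophages moved with this result, since MHC class II low cells were 22.9% of female and 2.49% of male C1q-positive cells. Within MHC class II high macrophages alone, Trem2 was 1.50-fold higher in the female library (1.34 to 1.68), Apoe 1.47-fold (1.46 to 1.49), Cd9 1.83-fold and Apoc2 2.33-fold (1.88 to 2.90), while Lpl had a ratio of 0.994 (0.916 to 1.08). Within the MHC class II low subset Apoe was 1.44-fold (1.37 to 1.51) and Apoc2 3.28-fold higher (1.65 to 7.68), but Trem2 turned, at 0.592 (0.432 to 0.828), with the 18 male cells described above on the other side, and Cd9 was at 0.742 (0.466 to 1.24). Lpl at 0.339 (0.247 to 0.474) and Cd63 at 0.444 (0.347 to 0.575) were lower in the female MHC class II low cells. So was Fabp5, at 0.198 (0.0868 to 0.491, 21 and 9 UMIs). These ratios also rest on few male cells. For Cd63, 1 male cell held 39 of the 76 male UMIs. The share of this subset with a Cd63 UMI was 65.5% in the female library (110 of 168) and 61.1% in the male (11 of 18). Male Lpl and Fabp5 UMIs came from 6 and 4 cells. Within Lyve1 Folr2 macrophages Apoc2 was 6.80-fold higher (3.26 to 15.9), Apoe 1.63-fold and Trem2 1.73-fold with an interval reaching 0.979, while Cd9 was at 0.884 (0.445 to 1.70). That Cd9 ratio rests on 1 male cell, which held 22 of the 27 male UMIs. A Cd9 UMI was present in 4 of 88 male and 8 of 45 female cells of the subset. In Retnla Aldh1a2 macrophages Apoe was slightly lower in the female library, at 0.933 (0.871 to 0.998), but higher, at 1.18, with gate thresholds halved. Lpl was 1.61-fold higher there (1.45 to 1.80), and 0.825 under a mitochondrial ceiling of 1.2%, with 14 female and 35 male cells left. With both libraries given the same makeup of subsets the ratios were 1.21 for Trem2, 1.46 for Apoe, 2.81 for Apoc2, 1.58 for Cd9, 1.09 for Tyrobp, 0.812 for Cd63, 0.699 for Fabp5 and 0.960 for Lpl. These give the 18 male MHC class II low cells more weight, and without that subset Trem2 was at 1.53, Apoe at 1.46, Apoc2 at 2.63, Cd9 at 1.81, Tyrobp at 1.11, Cd63 at 0.887, Fabp5 at 0.979 and Lpl at 1.09.

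Classical monocytes had ratios of 0.551 for Trem2 (0.299 to 1.01), 0.841 for Apoe and 0.795 for Apoc2 (0.644 to 0.984). The last 2 turned to 1.33 and 1.14 once the highest Scrublet doublet scores were removed, and to 1.80 and 2.10 under the 1.2% ceiling. Nonclassical monocytes were at 1.02 for Trem2, 0.959 for Apoe (0.836 to 1.10) and 1.36 for Apoc2 (0.979 to 1.88). Whether the sexes differed more in macrophages than in monocytes was not tested. Under the mitochondrial ceiling of 1.2% the Trem2 ratio in C1q-positive macrophages was 1.09 and that in the MHC class II high subset 0.881, from 37 female and 56 male macrophages in all.

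**Figure D4:**
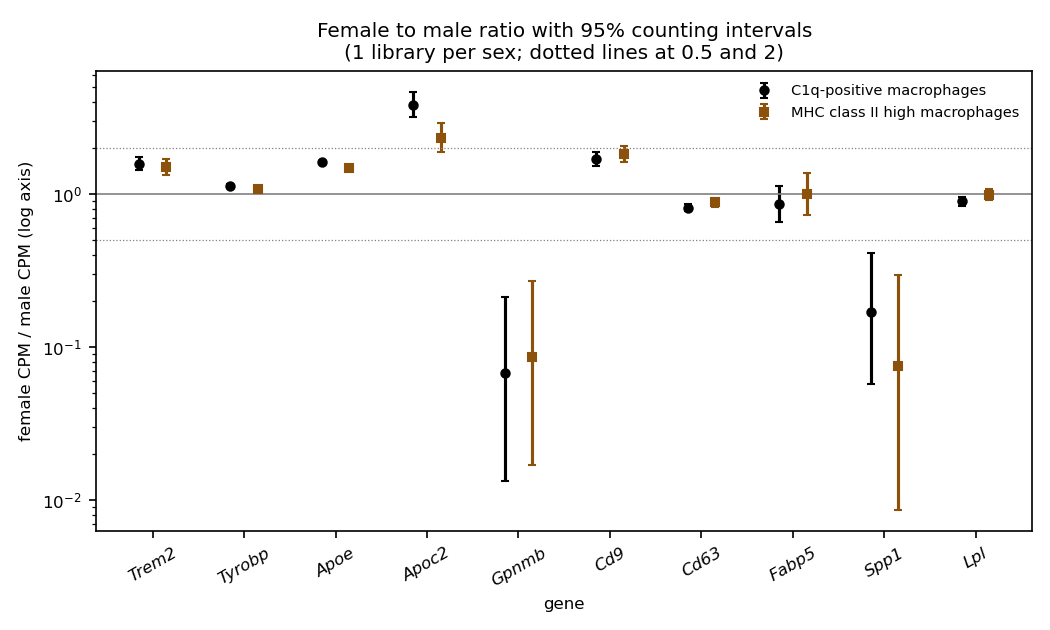
Ratio of female to male CPM on a log axis for each of the 10 genes in C1q-positive macrophages (black) and in their MHC class II high subset (brown), with 95% counting intervals and dotted lines at 0.5 and 2. Apoc2 lies above 2 (3.84 and 2.33), and Trem2, Apoe and Cd9 lie between 1.47 and 1.83. The Gpnmb and Spp1 points rest on 3 and 6 female UMIs in C1q-positive macrophages and on 3 and 2 in the subset.

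Per-cell correlations were computed in C1q-positive macrophages with at least 1000 UMIs, 704 female and 683 male cells, after the draw. They are descriptions across cells of 1 library each. Among the 6 genes with a UMI in at least 10% of cells of both libraries (Trem2, Tyrobp, Apoe, Cd9, Cd63 and Lpl), the 15 pairs had a median Pearson r of 0.087 in the female and 0.106 in the male library, and 13 of 15 were above 0 in each. Trem2 with Apoe had r = 0.25 and 0.28, with means of 0.22 and 0.26 over 20 draws, but -0.027 and -0.0022 by presence or absence of a UMI, since nearly every cell has an Apoe UMI. Cells with a Trem2 UMI after the draw held 43.8 Apoe UMIs per 1000 on average against 28.0 in the other female cells, and 33.1 against 16.6 in the male cells. Within MHC class II high macrophages the same pair had 0.23 and 0.27.

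Apoe with Cd63 had r = 0.19 and 0.30, the female value -0.029 under the 1.2% ceiling, and Trem2 with Cd9 had 0.13 and 0.12. A Cd9 UMI was present in 29.1% of female Trem2-positive cells (22.3 to 36.7) and in 18.6% of the others (15.4 to 22.1), and in 21.3% (14.0 to 30.2) and 9.91% (7.59 to 12.7) of male cells. Trem2 with its adaptor Tyrobp had r = 0.00 and 0.07 in the draw used and 0.07 and 0.10 on average over 20 draws, all 20 above 0 in each library. Apoe with Lpl was slightly below 0, at -0.05 and -0.06. Pairs with Gpnmb or Spp1 rested on few cells: male Gpnmb with Spp1 was -0.00 in the draw used and 0.52 on average over 20 draws, where single draws fell anywhere from -0.00 upwards. No pair of these genes in these sparse counts is read as a shared program.

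**Figure D5:**
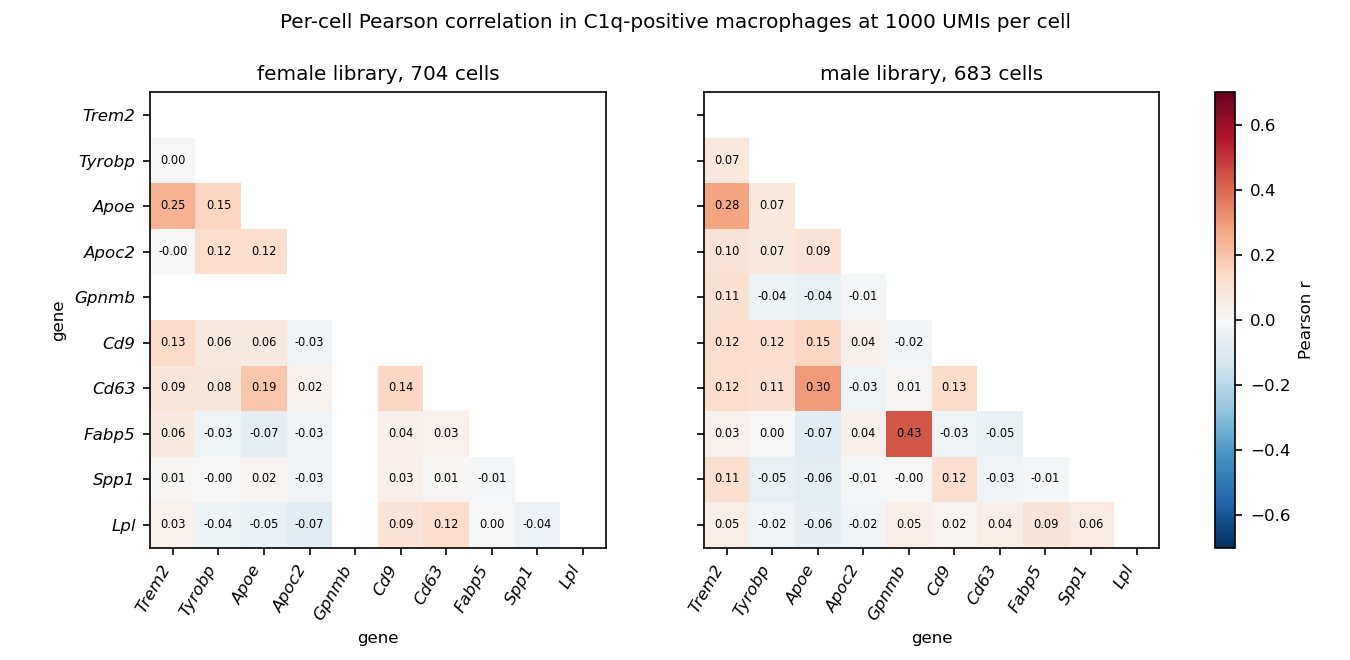
Pearson r between the 10 genes across C1q-positive macrophages reduced to 1000 UMIs, female library (704 cells) left and male library (683 cells) right. Trem2 with Apoe (0.25 and 0.28) and Apoe with Cd63 (0.19 and 0.30, the female value -0.029 under the 1.2% ceiling) lie above the median of 0.087 and 0.106 over the 15 pairs of well-detected genes.

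The genes most like Trem2 were ranked by Pearson r of log2(CPM + 10) over the 15 cell classes of both libraries, 30 points that share 2 libraries and their depth. Of 8311 genes, Itgb5 (0.97), an integrin of apoptotic cell uptake, Apoe (0.96), Sash1 (0.94), the sialic acid receptor gene Siglec1 (0.94) and the efferocytosis receptor gene Axl (0.93) came highest. Lpl ranked 77 (0.81) and Apoc2 88 (0.80), while Cd63 (553), Fabp5 (1060), Tyrobp (1141) and Cd9 (2094) ranked far lower. From cell to cell within C1q-positive macrophages, Apoe (mean r of both libraries 0.26), Ctsd (0.22), Ms4a7 (0.19) and Ctss (0.15) came highest of 1117 genes, and Ctsd and Ctss encode lysosomal proteases.

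Other genes of these pathways were taken from 4 lists, to be read against the 0.591% of all 8125 genes that were 2-fold or more higher in the female and the 0.997% in the male library. Of 12 TREM family and signalling genes 8 had enough UMIs, none of these was 2-fold apart between the libraries, and their median ratio was 1.18. Below the UMI limit, and named after their values were seen, Trem1 had 27 and 3 UMIs (ratio 8.13, 2.50 to 41.9) and Trem3 25 and 3 (7.53, 2.30 to 38.9). Their most abundant members in macrophages were Ms4a7 (1007 and 862 CPM), Ms4a6d (360 and 247 CPM), Inpp5d, Syk and Hcst. Of 22 other lipid- and disease-associated genes 21 were found and 19 tested, and Fabp4, a fatty acid carrier of adipocytes, endothelium and macrophages, was the 1 gene past 2-fold, at 103 CPM in the female and 213 CPM in the male library (ratio 0.482). Cd52, a surface glycoprotein gene of leukocytes (2571 and 2205 CPM, and 3809 and 3870 CPM in T cells), Lgals3 (989 and 973 CPM) and the lysosomal genes Ctsb (2067 and 2440 CPM), Ctsz and Npc2 stayed within 2-fold. Of 14 apolipoprotein and lipoprotein handling genes 9 were tested, and Apoc1, a neighbour of Apoe and Apoc2, was 2.92-fold higher in the female library (54.0 and 18.5 CPM), while Lrp1, Abca1, Abcg1 and Scarb1 stayed within 2-fold. The microglia genes Cx3cr1 (814 and 797 CPM), Tmem119 (123 and 134 CPM) and P2ry12 (24.9 and 32.6 CPM) were found in macrophages of both libraries within 2-fold, and Sall1, a transcription factor of microglia, had 0 UMIs in either. Median female-to-male ratios were 0.921 for the lipid- and disease-associated genes tested, 0.987 for the apolipoprotein and lipoprotein handling genes and 0.971 for the microglia genes.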

How the data were processed

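Live CD45+ adrenal cells were profiled in 1 female and 1 male library. The deposited values are raw counts of UMIs per gene and barcode: per the file headers and the study's methods, the authors aligned and counted the reads with Cell Ranger 4.0.0 (build mm10 per the labels' processing notes) and removed noise barcodes by the knee of the barcode rank curve. UMI counting collapses PCR copies, and the 3′ tags do not show isoforms.

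From these counts, barcodes with at least 200 genes and at most 15% mitochondrial UMIs were kept (3817 female, 2502 male). The methods name a mitochondrial ceiling of 1.2%. Applied as a percent of UMIs, it left 327 and 359 cells, several times fewer than the methods say passed their filters, so the scale they used is not settled and this alternative is a strict setting rather than a repeat of theirs. Cells were gated by UMI sums of canonical markers. Thresholds were set after the marker distributions were seen, and cells positive for 2 lineages (160 and 51) were removed as likely doublets. T cell and NK cell markers counted as the same lineage there. Scrublet in scanpy 1.11.5 marked 2 and 10 barcodes by its own threshold, too few to have worked, so removal of its highest scores at 0.8% per 1000 barcodes (126 and 58) was an alternative. Ungated cells (359 and 331) and endothelial cells (35 and 39) entered no comparison. MHC class II low meant 10 or fewer UMIs per 1000 of Cd74, H2-Eb1, H2-Ab1 and H2-Aa.

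Levels are summed UMIs scaled to the class total (CPM) with exact Poisson 95% intervals, shares of cells carry Clopper-Pearson intervals after a draw of 1000 UMIs per cell, and ratios carry exact conditional binomial intervals. No p-value was computed, since cells are not replicates. The fold counts used genes with 50 or more UMIs over the groups compared and a 2-fold limit. The fold rule, the ratio and Poisson intervals and the Pearson correlation were tested on simulated data, and the draw on cells of the male library. The gates, the common makeup of subsets and the ranking of genes like Trem2 were not tested in this way. List genes were named if 2-fold apart between the sexes or among the 5 highest of their list in macrophages. A gene that these rules also name is not reported here. The genes, lists and gates were chosen with earlier results of these data known. Alternatives were mitochondrial ceilings of 5% and 1.2%, gate thresholds doubled and halved, Scrublet removal, a mean over cells in place of sums, draws of 500 and 2000 UMIs, presence or absence of a UMI, and, chosen after seeing the data, leaving out cells with 3 or more Gpnmb or Spp1 UMIs, averaging 20 draws, keeping only the C1q-positive cells of the Retnla Aldh1a2 subset, and a common makeup of subsets without the MHC class II low one. Python 3.11.15, numpy 2.4.6, scipy 1.17.1 and pandas 2.3.3 were used.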

Additional observations from a re-analysis of the deposited data

Results flagged for a closer look

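Some ratios pointed opposite ways in the 2 libraries, and the difference between the libraries was not tested. Cd9 in C1q-positive macrophages over type 2 dendritic cells was 1.84 in the female and 0.645 in the male library. Fabp5 over the same dendritic cells was 0.172 and 3.53, where 1 female cell held 55 of the 60 dendritic cell UMIs. Gpnmb in C1q-positive macrophages over T cells was 0.278 and 5.56, where 1 male cell held 36 of the 40 macrophage UMIs. In MHC class II low macrophages over the other C1q-positive macrophages, Cd9 was 0.697 and 1.76 and Cd63 0.623 and 1.27, with 18 male cells in the subset. Of those, 1 cell held 39 of the 76 Cd63 UMIs and 1 cell held 10 of the 20 Cd9 UMIs.

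Some genes stood higher in cells outside the comparisons than in C1q-positive macrophages of the same library. Endothelial cells held Cd9 at 477 CPM in the female and 494 CPM in the male library, Fabp5 at 144 and 281 CPM, and Apoc2 at 126 CPM in the male library. Fabp5 stood at 92.6 CPM in ungated female cells and at 85.5 CPM in male cells positive for 2 lineages.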

How the results depend on the processing

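Of 262 female-to-male ratios recomputed under an alternative, 199 moved by less than their counting interval, 51 moved by more and 12, whose interval had excluded 1, changed sides of it. Of 111 ratios between classes 89 stayed, 21 moved and 1 changed sides on the same terms, of 226 ratios of the Lyve1 Folr2 or Retnla Aldh1a2 subset to the other C1q-positive macrophages 147 stayed, 78 moved and 1 changed sides (male Cd9 in Lyve1 Folr2 macrophages, 1.16 under a 5% ceiling), of 60 shares of cells 18 stayed and 42 moved, and of 193 correlations 166 stayed, 24 moved and 3 changed sign. In C1q-positive macrophages the 1.2% mitochondrial ceiling gave female-to-male ratios of 1.09 for Trem2, 1.21 for Tyrobp, 1.82 for Apoe, 1.22 for Cd9, 0.499 for Cd63 and 0.480 for Lpl, and a male Trem2 ratio over classical monocytes of 6.79. Apoe was at 1.56 with gate thresholds doubled, 1.60 halved and 1.70 as a mean over cells, Cd63 at 0.887 as a mean over cells and Fabp5, whose interval spanned 1, at 1.18 with thresholds doubled. Trem2 with Apoe fell to r = 0.16 in the female library with 500 UMIs drawn, and by presence or absence of a UMI to -0.027 and -0.0022, since nearly every cell has an Apoe UMI. Under the 1.2% ceiling the sides turned for Trem2 in MHC class II high (0.881), Lpl in Retnla Aldh1a2 macrophages (0.825), Apoe (1.80) and Apoc2 (2.10) in classical monocytes, female Apoc2 over classical monocytes (1.04) and female Apoe with Cd63 (r = -0.029). They also turned with thresholds doubled for Gpnmb (1.13 in C1q-positive, 1.42 in MHC class II high macrophages) and Lpl in Lyve1 Folr2 macrophages (1.27, and 1.14 as a mean over cells), with thresholds halved for Apoe in Retnla Aldh1a2 macrophages (1.18), and in classical monocytes with Scrublet removal for Apoe (1.33) and Apoc2 (1.14, and 1.05 as a mean over cells). The cause of these turns was not tested, and the 1.2% ceiling leaves few cells. No paired analysis was possible because each sex has 1 library. At these depths Gpnmb and Spp1 are limited by single cells.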
